A study of Mus musculus with 12 samples.

Results

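Ligands and receptors that restrain T cells and macrophages were read in mammary tumours of MMTV-PyMT mice. The set holds 9 genes picked by symbol, of 750 endogenous probes on the panel, and all 9 were found. They are Cd274 and Pdcd1lg2 (the ligands of PD-1), Cd276 and Vtcn1 (other proteins of the B7 family), Pvr (a ligand shared by TIGIT, CD96 and CD226), Cd47 with its receptor Sirpa, and Lgals9 with its receptor Havcr2. MMTV-PyMT tumours arise because a viral promoter active mainly in mammary epithelium drives the polyoma virus middle T oncogene. Transcripts were counted with the nCounter Mouse PanCancer IO360 panel, which tallies fluorescent barcodes bound to chosen RNAs. The RNA came from snap-frozen tumour pieces and was reverse transcribed, and the panel's transcripts were enriched by multiplex amplification before the count.

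The 12 libraries fall into 5 groups by their titles, and all tumours had been given PTX, the chemotherapy. PLX+PTX+aPD-L1 (n = 2) added to PLX and PTX an antibody against PD-L1, the protein made from Cd274. The groups here called R and NR (n = 3 each) had PLX and PTX with an antibody against PD-1, and their titles end in R or NR, which the labels do not expand. PLX+PTX (n = 2) had no antibody, and PTX (n = 2) had neither PLX nor antibody; the series title speaks of CSF1R inhibition, CSF1R being the receptor that macrophages need. No untreated tumour is among them, and the labels give no dose, time or age and do not say whether samples of a group are separate animals. P-values therefore cover the spread among the deposited samples alone, and that spread may be technical.

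PD-L1 and PD-L2 on tumour or myeloid cells bind PD-1 on T cells and damp their signalling, and interferon gamma is a known inducer of PD-L1. CD47 on a cell's surface binds SIRP alpha on macrophages and holds back engulfment, the "don't eat me" signal, while galectin-9 and TIM-3, made from Lgals9 and Havcr2, are another inhibitory pair. B7-H3 (Cd276), B7-H4 (Vtcn1) and the poliovirus receptor (Pvr) are often made by epithelial tumour cells.

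Endogenous counts summed to between 98741 and 531086 per library. The 3 lowest sums were those of R replicate 2 (128083) and PLX+PTX+aPD-L1 replicates 1 (141021) and 2 (98741). Levels below are counts scaled to the 20 housekeeping probes of each library, with scale factors of 0.346 to 1.80. The detection limit was the mean of a library's 8 negative-control probes plus 2 SD and lay between 19.1 and 35.6 raw counts. Scaling lifts that background too: the scaled negative-control mean averaged 27.2 ± 7.50 in PLX+PTX+aPD-L1, 20.9 ± 2.63 in R, 11.9 ± 2.28 in NR, 14.8 ± 2.43 in PLX+PTX and 12.4 ± 2.39 in PTX (SD). Probes differ in how well they capture their target, so no gene's level is set against another gene's. The epithelial gene Epcam was above the limit in all 12 libraries (1759 to 11289 raw counts), as were the macrophage genes Csf1r, Cd68, Mrc1 and Cd14. The other macrophage and monocyte markers on the panel passed in fewer: Adgre1 in 10, Itgam in 9, Fcgr1 in 8, Cd163 in 3 and Ccr2 in 2. Of 10 T cell markers, only Cd3g passed the limit in 6 or more libraries. In bulk tumour RNA, fewer cells of a type and less RNA per cell cannot be told apart.

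Measured against this background, the set split into 6 genes with clear signal and 3 at or near the background. Cd276, Vtcn1, Pvr, Cd47, Sirpa and Lgals9 were above the limit in 12 of 12 libraries. Cd274 was above it in 4, and Pdcd1lg2 and Havcr2 in none. Together, 76 of the 108 readings of a gene in a library exceeded the limit. A gene was tested for differences when at least 2 libraries held 20 or more raw counts, which 615 of the 750 probes did. Cd274 and the 6 clear genes passed that filter (7 of 9); Pdcd1lg2 and Havcr2 did not and have no test.

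**Figure D1:**
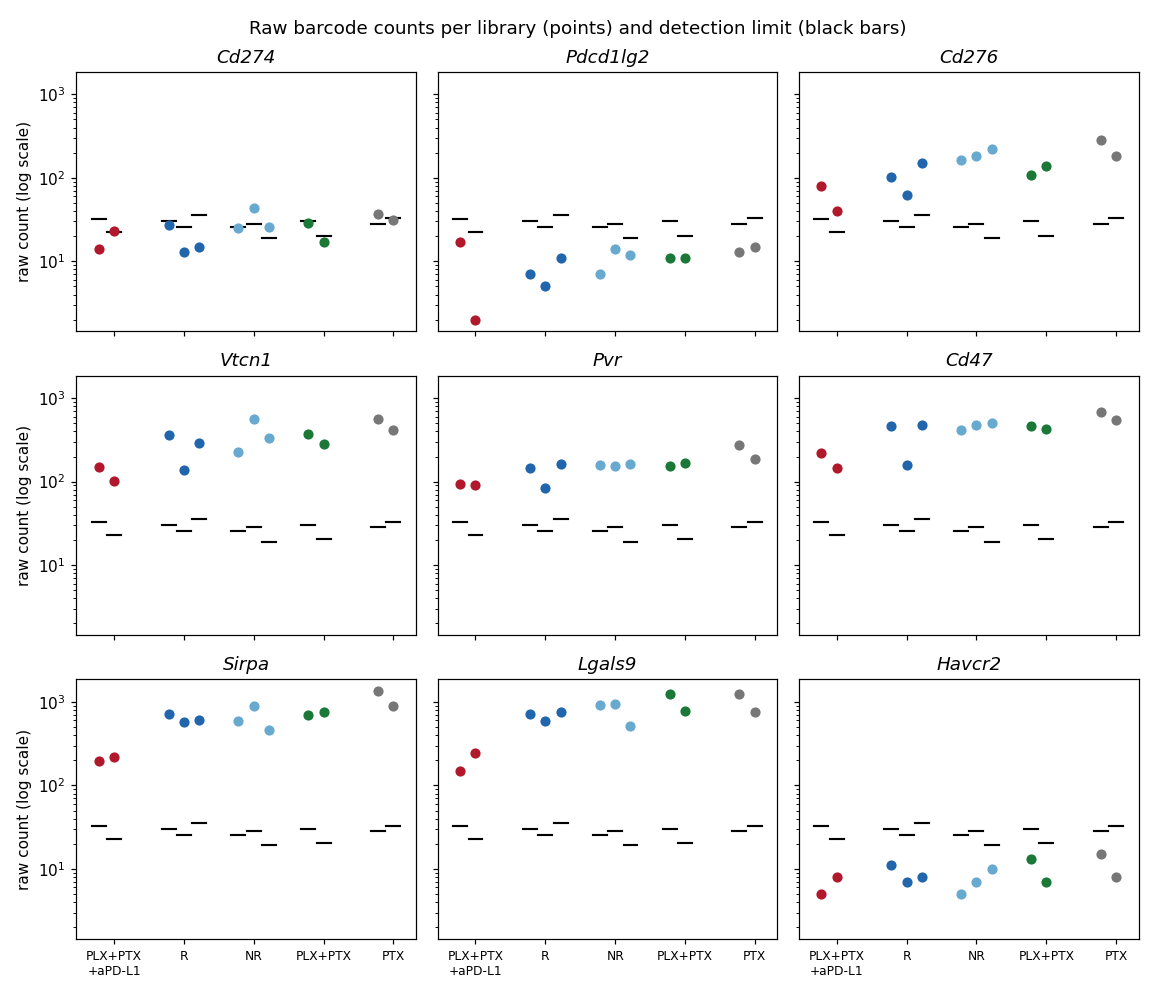
Raw barcode counts (log axis) of each gene in each of the 12 libraries, grouped by treatment. Black bars mark the library's detection limit. Havcr2 and Pdcd1lg2 lie below the bars throughout, Cd274 straddles them, and the other genes lie above them in every library.

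The PD-1 ligands were read close to the background of the assay. The raw count of Cd274 was 14 and 23 in PLX+PTX+aPD-L1, 27, 13 and 15 in R, 25, 44 and 26 in NR, 29 and 17 in PLX+PTX, and 37 and 31 in PTX. The libraries above their own limit were PLX+PTX+aPD-L1 replicate 2, NR replicates 2 and 3, and PTX replicate 1. Within each group some library lay at or under the limit, so the groups were not separated by detection.

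After scaling, Cd274 stood at 18.6 and 66.5 in PLX+PTX+aPD-L1, at 23.7, 25.6 and 14.4 in R, at 21.1, 34.6 and 18.1 in NR, at 27.5 and 14.8 in PLX+PTX and at 20.6 and 22.8 in PTX. The single high value, 66.5, came from 23 raw counts in the library of lowest signal, whose limit was 22.7 counts. The scaled negative-control mean of that library was 32.5. Less the background, Cd274 was 34.0 there and −3.32 in the other PLX+PTX+aPD-L1 library, which did not exceed its negative controls. The group ranges overlapped throughout. The 95% intervals of the log2 fold changes reached 1 or more in at least 1 direction in all 6 comparisons, so a 2-fold difference in at least 1 direction lay inside each interval.

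Pdcd1lg2, which encodes PD-L2, was read at 17 and 2 raw counts for PLX+PTX+aPD-L1, 7, 5 and 11 in R, 7, 14 and 12 in NR, 11 and 11 in PLX+PTX, and 13 and 15 in PTX. It exceeded the mean of the negative controls in 1 library, PLX+PTX+aPD-L1 replicate 1, and the limit in none. Pdcd1, the gene of the receptor PD-1 itself, was also above the limit in no library.

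Cd276 and Vtcn1, the B7 family members with no role in PD-1 binding, were read in every tumour. Scaled Cd276 was 106 and 116 in PLX+PTX+aPD-L1, 89.6, 122 and 143 in R, 139, 146 and 155 in NR, 102 and 122 in PLX+PTX, and 159 and 133 in PTX. Both PTX and all NR libraries lay above both PLX+PTX libraries, while R spanned the range. The share of all tested probes that separate in this way was not counted, here or below. No such separation is therefore read as a result about a gene. The group means were 111 ± 6.64 in PLX+PTX+aPD-L1, 118 ± 27.0 in R, 146 ± 8.39 in NR, 112 ± 14.3 in PLX+PTX and 146 ± 18.2 in PTX (SD). In that order of levels (NR, PTX, R, PLX+PTX, PLX+PTX+aPD-L1), the ranges of all neighbouring groups overlapped. By edgeR's quasi-likelihood test the log2 fold change was −0.39 for PLX+PTX against PTX (SE 0.29, adjusted p = 0.996) and 0.39 for NR against PLX+PTX (SE 0.27, adjusted p = 0.929).

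Vtcn1 encodes B7-H4, an inhibitory ligand whose receptor is not settled. Its scaled level was 198 and 298 in PLX+PTX+aPD-L1, 319, 270 and 282 in R, 193, 439 and 231 in NR, 348 and 246 in PLX+PTX, and 315 and 307 in PTX. The NR group held both the lowest and the highest of the 12 values. All group means lay between 248 ± 70.6 (PLX+PTX+aPD-L1) and 311 ± 5.83 (PTX), with the ranges of neighbours overlapping, and the test for any difference among the 5 groups gave an adjusted p of 0.983.

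Pvr, the CD155 gene, was 123 and 266 in PLX+PTX+aPD-L1, 127, 165 and 158 in R, 135, 121 and 112 in NR, 144 and 146 in PLX+PTX, and 155 and 139 in PTX. One library, PLX+PTX+aPD-L1 replicate 2, stood above the other 11, which lay between 112 and 165. All 3 NR values lay under both PLX+PTX values. Its raw counts had been 92 in that high library and 93 in the other of its group, so the gap between them comes with their scale factors, 0.346 and 0.753. The group means were 195 ± 101 in PLX+PTX+aPD-L1, 150 ± 20.6 in R, 123 ± 11.6 in NR, 145 ± 1.37 in PLX+PTX and 147 ± 10.9 in PTX (SD). NR against PLX+PTX, which did not overlap, gave a log2 fold change of −0.24 (SE 0.31, adjusted p = 0.947 by edgeR). The receptor genes Tigit and Cd96 were above the limit in no library.

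Cd47 was the steadiest gene of the set. Its scaled level was 296 and 419 in PLX+PTX+aPD-L1, 413, 313 and 461 in R, 351, 376 and 355 in NR, 435 and 368 in PLX+PTX, and 379 and 406 in PTX. The highest of the 12 values was 1.56 times the lowest. The standard deviation of its log2 level over the 12 libraries was 0.19, lower than in all but 5.78% of the 329 probes that were above the limit in every library. The 3 NR values lay below both PTX values, and other neighbouring groups overlapped. The means were 357 ± 87.0 in PLX+PTX+aPD-L1, 396 ± 75.5 in R, 361 ± 13.5 in NR, 402 ± 47.1 in PLX+PTX and 393 ± 19.6 in PTX (SD). The 6 log2 fold changes of Cd47 lay between −0.17 and 0.14, and the widest 95% interval, PLX+PTX+aPD-L1 against PLX+PTX, ran from −0.78 to 0.43.

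Sirpa, the macrophage-side receptor for CD47, varied more. Its level was 263 and 630 in PLX+PTX+aPD-L1, 629, 1125 and 581 in R, 506, 702 and 320 in NR, 667 and 653 in PLX+PTX, and 747 and 666 in PTX. The low end was PLX+PTX+aPD-L1 replicate 1 and NR replicate 3, and the high end R replicate 2. The highest value was 4.28 times the lowest. Both PLX+PTX+aPD-L1 values lay under both PLX+PTX values, a separation whose share among all tested probes was not counted. The group means were 446 ± 260 in PLX+PTX+aPD-L1, 779 ± 301 in R, 510 ± 191 in NR, 660.2 ± 10.3 in PLX+PTX and 706 ± 57.4 in PTX (SD), and neighbours in the order of levels overlapped.

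In tumours Sirpa is known mainly from myeloid cells, so the macrophage and monocyte markers are given beside it. The scaled levels of the 9 markers on the panel summed to 734 and 1396 in PLX+PTX+aPD-L1, to between 1455 and 1510 in R and 986 and 2070 in NR, to 1537 and 1679 in PLX+PTX and to 2767 and 1737 in PTX. Cd14 weighed heavily in some of these sums. It was 1723 of the 2070 in NR replicate 2, where Csf1r was only 66.9, and 1663 of the 2767 in PTX replicate 1. In PLX+PTX+aPD-L1 replicate 1 it was 230 of the 734. Across the 12 libraries, Pearson's correlation of log2 Sirpa with Csf1r was 0.03. With Cd14, a receptor for bacterial lipopolysaccharide, it was 0.86, and 0.48 without the 2 libraries of most extreme Sirpa. The median over the 9 markers was 0.03, beside 0.15 over the 614 other tested probes. Over the 9 libraries of higher signal that order was reversed, at 0.33 beside 0.21. There the correlation of Sirpa was 0.27 with Csf1r and 0.87 with Cd14. The part of macrophage content in the Sirpa values was not tested.

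Lgals9, which encodes galectin-9, was the most variable of the 6 clear genes. Its level was 198 and 714 in PLX+PTX+aPD-L1, 631, 1170 and 724 in R, 778, 739 and 360.1 in NR, 1176 and 671 in PLX+PTX, and 684 and 551 in PTX. PLX+PTX+aPD-L1 replicate 1 and NR replicate 3 were again the lowest libraries, and PLX+PTX replicate 1 and R replicate 2 the highest. The highest value was 5.95 times the lowest, and the standard deviation of log2 Lgals9 was 0.70, above that of 90% of the 329 probes. The means were 456 ± 365 in PLX+PTX+aPD-L1, 842 ± 288 in R, 626 ± 231 in NR, 924 ± 357 in PLX+PTX and 618 ± 94.0 in PTX (SD), and each range overlapped its neighbour's. Havcr2, its receptor TIM-3, was read at 5 and 8 raw counts for PLX+PTX+aPD-L1, 11, 7 and 8 in R, 5, 7 and 10 in NR, 13 and 7 in PLX+PTX, and 15 and 8 in PTX, below the negative-control mean in all 12 libraries.

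**Figure D2:**
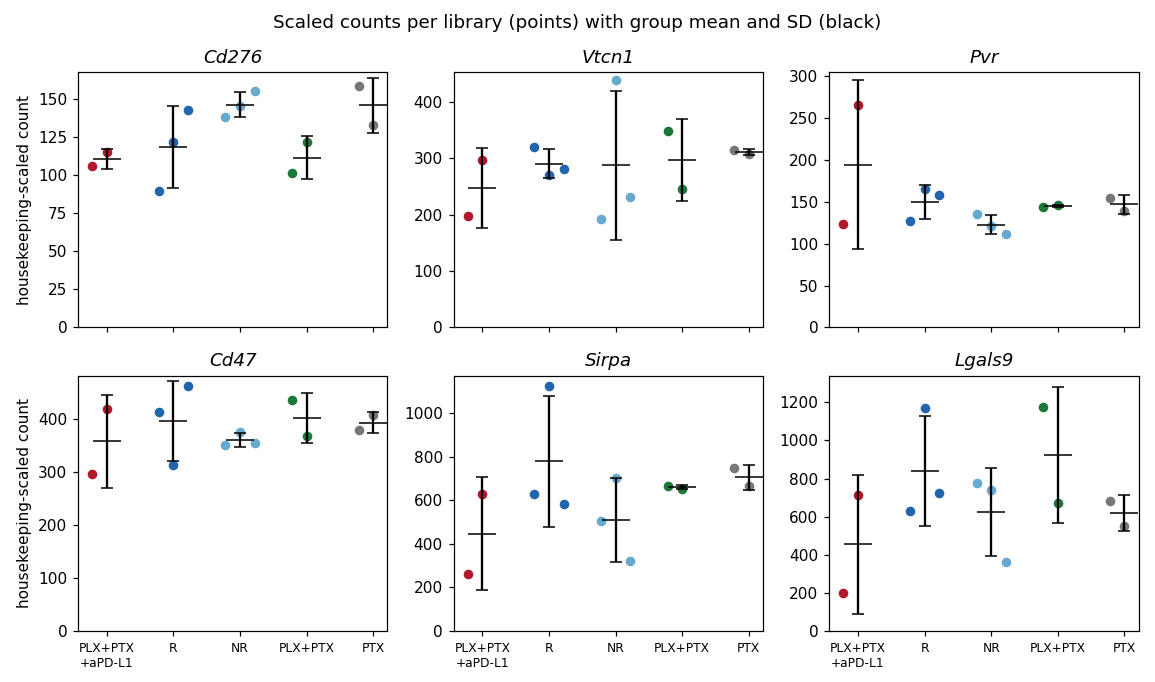
Housekeeping-scaled counts (linear axis from 0) of the 6 genes above the detection limit in every library. Points are libraries, and black marks and bars are group means and SD (n = 2 or 3). Cd47 stays between 296 and 461, while Sirpa runs from 263 to 1125 and Lgals9 from 198 to 1176.

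The promoters of the steadiest and the most variable clear gene are shown because they differ in composition and in interferon-type motifs. Both genes were picked by their spread in these data, so the contrast is no test. RefSeq's promoter table (GRCm38.p6) held 7 of the 9 genes, all but Pvr and Sirpa. Its windows run from 250 bases before the start site to 50 after it. The interferon-stimulated response element core, GAAA followed by any 2 bases and GAAA, was searched on both strands in the whole window. Lgals9 held 2 matches, and the other 6 genes none. Of all 32851 promoter windows, 3.44% held at least 1 match and 0.225% held 2 or more. The gamma-activated site TTCNNNGAA was in none of the 7 and in 8.3% of all windows. The 250 bases before the Lgals9 start (chr11:78984925-78985174, minus strand) are printed with the match, first base at −55, in capitals; the shorter stretch (chr11:78984892-78984917, minus strand) holds the second match in capitals, first base at +16. The Cd47 bases are chr16:49855404-49855653, plus strand, the first of its 2 start sites in the table.
Lgals9: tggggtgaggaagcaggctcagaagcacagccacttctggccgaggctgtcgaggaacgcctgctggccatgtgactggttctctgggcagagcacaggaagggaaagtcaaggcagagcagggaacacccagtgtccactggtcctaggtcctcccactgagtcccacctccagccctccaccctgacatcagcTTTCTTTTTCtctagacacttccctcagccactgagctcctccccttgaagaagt
Lgals9 after the start: agctgtggTTTCTGTTTCctagctca
Cd47: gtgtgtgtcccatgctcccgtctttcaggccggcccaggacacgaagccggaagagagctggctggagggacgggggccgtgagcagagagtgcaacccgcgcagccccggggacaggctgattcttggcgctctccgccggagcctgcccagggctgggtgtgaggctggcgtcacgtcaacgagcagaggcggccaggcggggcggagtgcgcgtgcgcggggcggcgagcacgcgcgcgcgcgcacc

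Over its whole window, the Lgals9 promoter had 58% G and C and 4 CpG pairs, fewer than most: 31.4% of all promoters had fewer still. The printed Cd47 window had 74% G and C and 35 CpG pairs, more than 93% of promoters. Cd276, the next steadiest gene by the standard deviation of its log2 level (0.26), also had a CpG-rich window, with 78.3% G and C and 39 CpG pairs. Vtcn1 had 53.7% G and C and 5 pairs, and Cd274 52.7% and 15. Pdcd1lg2 and Havcr2 had 46% and 45.3%, with 3 pairs each. Pvr and Sirpa have no window, and whether composition goes with spread was not tested. These are 7 genes, and a motif match is a string of letters, not a shown binding site.

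The first comparison, PLX+PTX against PTX, asks what PLX added to the chemotherapy. No gene of the set passed: 0 of 7 were called, and the background was 0% of the 615 probes tested (unadjusted p was under 0.05 for 12 probes, none of the set). Neither DESeq2 nor limma-voom called any. The median log2 fold change of the 7 was −0.04, beside 0.03 over all tested probes. The gene furthest from 0 was Lgals9, at 924 ± 357 in PLX+PTX, against 618 ± 94.0 in PTX (log2 fold change 0.58, 95% interval −0.63 to 1.79, adjusted p = 0.996), with only 1 of the 2 PLX+PTX libraries above both PTX libraries. Without that library, PLX+PTX replicate 1, the value was 0.12. Cd276 was separated between the groups at a log2 fold change of −0.39 (95% interval −1.03 to 0.26). The other 5 genes lay between −0.10 and 0.03, but Cd274, at −0.04, moved with the processing: it was −0.55 without PLX+PTX replicate 1, 0.34 without PLX+PTX replicate 2 and −0.52 with the negative controls subtracted. Vtcn1, at −0.07, was −0.34 and 0.16 without the same libraries in turn.

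R against NR compares tumours of the same treatment whose titles carry different endings. Again 0 of 7 genes were called, with 0% of all probes (42 at an unadjusted p under 0.05, none of the set), and neither DESeq2 nor limma-voom called a gene of the set. The median was 0.14, beside 0.11 over all probes. Sirpa averaged 779 ± 301 in R and 510 ± 191 in NR (log2 fold change 0.61, SE 0.38, adjusted p = 0.819), Lgals9 842 ± 288 and 626 ± 231 (0.43, SE 0.45, adjusted p = 0.939), and Pvr 150 ± 20.6 and 123 ± 11.6 (0.28, SE 0.28, adjusted p = 0.939), all 3 turning negative under positive-control scaling. Cd276 ran the other way, 118 ± 27.0 in R and 146 ± 8.39 in NR (−0.31, SE 0.24, adjusted p = 0.914). Without R replicate 2, a library of low signal, Sirpa was at 0.25 and Lgals9 at 0.11. Without R replicate 1, Cd276 was at −0.14. Cd274 was at −0.24, at 0.09 without NR replicate 2 and at −2.30 with the negative controls subtracted.

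Against PLX+PTX, the shared control of both antibody groups, 0 of 7 genes were called for R and 0 of 7 for NR. The background was 0% in each, with 15 and 23 probes at an unadjusted p under 0.05, none of the set. In R every gene lay within 0.24 of 0 on the log2 scale, from −0.14 (Lgals9) to 0.24 (Sirpa). For Cd274, at −0.02 in R, that small value did not hold: it was 0.49 without PLX+PTX replicate 1, −0.40 without PLX+PTX replicate 2 and −1.33 with the negative controls subtracted. Without R replicate 2, Sirpa was at −0.12. In NR, Lgals9 was at −0.56 (SE 0.50), Cd276 at 0.39 and Sirpa at −0.37 (SE 0.42), with adjusted p of 0.929, 0.929 and 0.947. The NR value of Lgals9 was −0.10 without PLX+PTX replicate 1. That of Cd274, at 0.22, was 0.73 without the same library, −0.16 without PLX+PTX replicate 2 and 0.97 with the negative controls subtracted. The medians of the 7 genes were −0.02 in R and −0.15 in NR, beside −0.07 and −0.18 over all probes.

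PLX+PTX+aPD-L1 against PLX+PTX compares the antibody that targets the Cd274 product with no antibody. By edgeR, 14 probes (2.28%) were called, all higher in PLX+PTX+aPD-L1, and 99 had an unadjusted p under 0.05; 0 of the 7 genes were in either count. Lgals9 was lowest, 456 ± 365 in PLX+PTX+aPD-L1, set against 924 ± 357 in PLX+PTX (log2 fold change −1.03, 95% interval −2.26 to 0.20, adjusted p = 0.410). Sirpa was at −0.57 (95% interval −1.59 to 0.44, adjusted p = 0.566) and Vtcn1 at −0.27 (adjusted p = 0.763), Vtcn1 turning to 0.12 when scaled to total endogenous counts. Cd274 stood at 0.89 (95% interval −0.37 to 2.14, adjusted p = 0.475) and Pvr at 0.40 (95% interval −0.36 to 1.16, adjusted p = 0.588), and both turned negative under positive-control scaling. The median of the 7 was −0.17, beside −0.02 over all probes.

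These values rested on which of the 2 PLX+PTX+aPD-L1 libraries was counted. Leaving out either leaves 1 library in the group, which is then assumed to vary like the other groups. Without replicate 1, Lgals9 was at −0.37, Sirpa at −0.07, Cd274 at 1.65 and Pvr at 0.87. Without replicate 2 they were at −2.22, −1.33, −0.18 and −0.23. Both libraries were of low signal, and how far this bears on the values was not tested.

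The last comparison sets PLX+PTX+aPD-L1 against R and NR averaged, hence the 2 antibodies side by side, and shares its PLX+PTX+aPD-L1 libraries with the comparison before. There 35 probes (5.69%) were called, all higher in PLX+PTX+aPD-L1, and 110 had an unadjusted p under 0.05, with 0 of the 7 genes in either count. Cd274 averaged 42.5 ± 33.9 in PLX+PTX+aPD-L1 and 22.9 ± 6.97 over the 6 libraries of R and NR (a log2 fold change of 0.78, SE 0.47, adjusted p = 0.392), and Pvr 195 ± 101 and 136 ± 21.1 (0.50, SE 0.28, adjusted p = 0.346), both negative under positive-control scaling. Sirpa averaged 446 ± 260 and 644 ± 269 (−0.51, SE 0.39, adjusted p = 0.509), and Lgals9 456 ± 365 and 734 ± 262 (−0.68, SE 0.48, adjusted p = 0.458). Cd276 was at −0.25 (SE 0.25, adjusted p = 0.628), with a value of 0.02 when scaled to total endogenous counts. Without PLX+PTX+aPD-L1 replicate 1, Pvr was at 0.97 and passed (adjusted p = 0.0476 by edgeR), on 1 remaining library of the group and a spread taken from the other groups. In the same refit Cd274 was at 1.55, Lgals9 at −0.02 and Sirpa at 0.002. Without replicate 2, Pvr was at −0.13, Cd274 at −0.28, Lgals9 at −1.87 and Sirpa at −1.26. The median of the 7 was −0.23, beside 0.10 over all probes.

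The test for any difference among the 5 groups called 18 probes (2.93%), with 87 at an unadjusted p under 0.05, and 0 of the 7 genes. The adjusted p of the 7 ran from 0.704 (Sirpa) to 0.983 (Vtcn1 and Cd47).

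**Figure D3:**
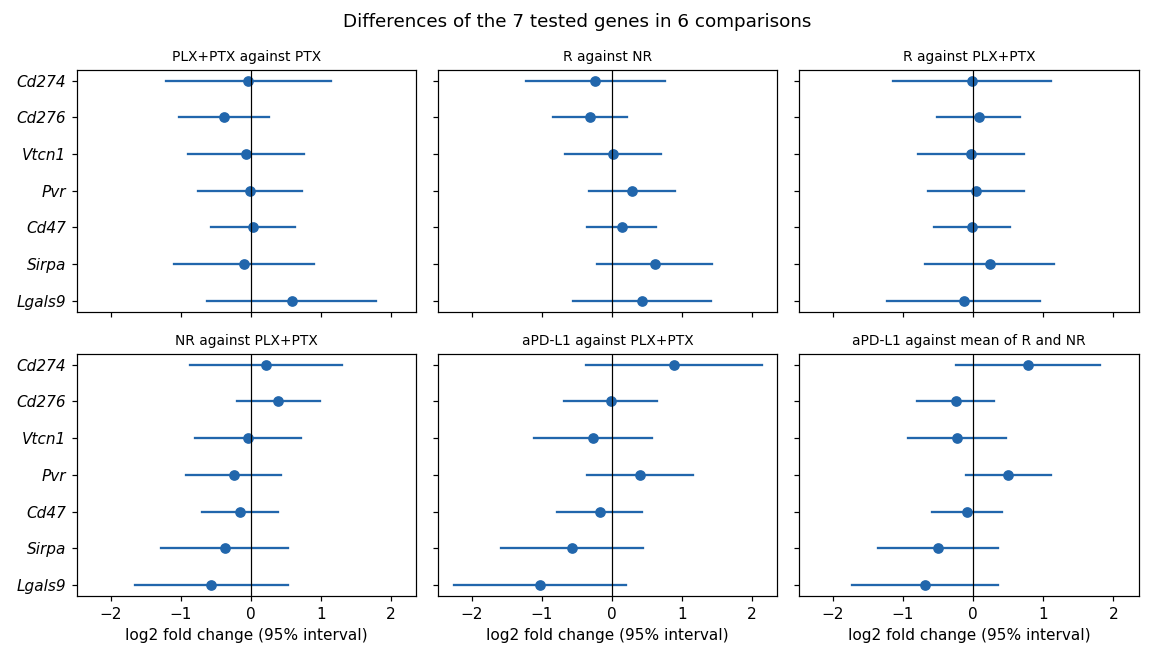
Log2 fold changes (points) and 95% intervals (lines) of the 7 tested genes in the 6 comparisons, from edgeR's fit over 615 probes; positive means higher in the group named first. Every interval includes 0, and the points furthest out are Lgals9 at −1.03 and Cd274 at 0.89 in PLX+PTX+aPD-L1 against PLX+PTX.

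Sirpa and Lgals9, though members of separate ligand and receptor pairs, had the highest Pearson correlation of log2 levels within the set, 0.87 over the 12 libraries. By rank it was not the highest: Spearman's correlation was 0.54, below that of Vtcn1 with Cd47 (0.64) and with Sirpa (0.63). It was 0.65 over the 9 libraries of higher signal and 0.50 without the 2 libraries of most extreme Sirpa, so it rested largely on PLX+PTX+aPD-L1 replicate 1 and NR replicate 3. Cd47 and its receptor gene Sirpa correlated at 0.29. Cd276 correlated with the other 5 clear genes at between −0.10 and 0.0043. The libraries share signal and scaling differences, so these correlations describe the 12 libraries and carry no test.

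The probes most like each gene over the 12 libraries were then read. Lgals9 went closest with Ifi27, an interferon-inducible gene, at a Pearson correlation of 0.98 (Spearman 0.90; 0.98 over the 9 libraries of higher signal; 0.89 without PLX+PTX+aPD-L1 replicate 1 and NR replicate 3). Ifi27 had scaled levels of 593 and 1959 in PLX+PTX+aPD-L1, 1779, 2433 and 1903 in R, 2081, 2269 and 1118 in NR, 3113 and 2081 in PLX+PTX, and 2088 and 1698 in PTX. The same 2 libraries were lowest and the same 2 highest as for Lgals9. Next came Slc2a1, the glucose transporter GLUT1, at 0.94 (0.86 over the 9 libraries).

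Sirpa was most like Itga2, an integrin subunit that binds collagen, at 0.95 (Spearman 0.90, 0.94 over the 9), with Itga2 above its limit in 10 libraries, and like the secreted signal Wnt5a at 0.90 (0.76 over the 9). Cd47 was most like Met, the receptor for hepatocyte growth factor, at 0.92 (0.81 over the 9) and Aldoa, a glycolysis enzyme, at 0.91 (0.78 over the 9). Vtcn1 went with the histone deacetylase gene Hdac5 at 0.84 (0.86 over the 9) and with Apol6 at 0.82, although Apol6 passed the limit in only 2 libraries. Cd276 went with Vcan, a matrix proteoglycan, at 0.79 (0.83 over the 9), and next with Loxl2 at 0.52.

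Pvr was most like Myct1 at 0.87, which passed the limit in 1 library, and like Nectin2 at 0.86, another nectin-family ligand of TIGIT and CD226. Nectin2 was 248 and 523 in PLX+PTX+aPD-L1, 236, 388 and 290.3 in R, 224, 282 and 164 in NR, 276 and 232 in PLX+PTX, and 244 and 233 in PTX. As with Pvr, PLX+PTX+aPD-L1 replicate 2 stood highest and NR replicate 3 lowest. Without those 2 libraries the correlation was 0.50 with Nectin2 and 0.27 with Myct1, so both relations rested on them.

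The choice of libraries changed which probe came first. Over the 9 libraries of higher signal, Ifi27 was still first for Lgals9 and Vcan for Cd276. The highest correlation there was 0.95 with Hdc for Sirpa, 0.96 with Cxcl3 for Cd47, 0.94 with Csf1 for Vtcn1 and 0.86 with Rnls for Pvr.

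**Figure D4:**
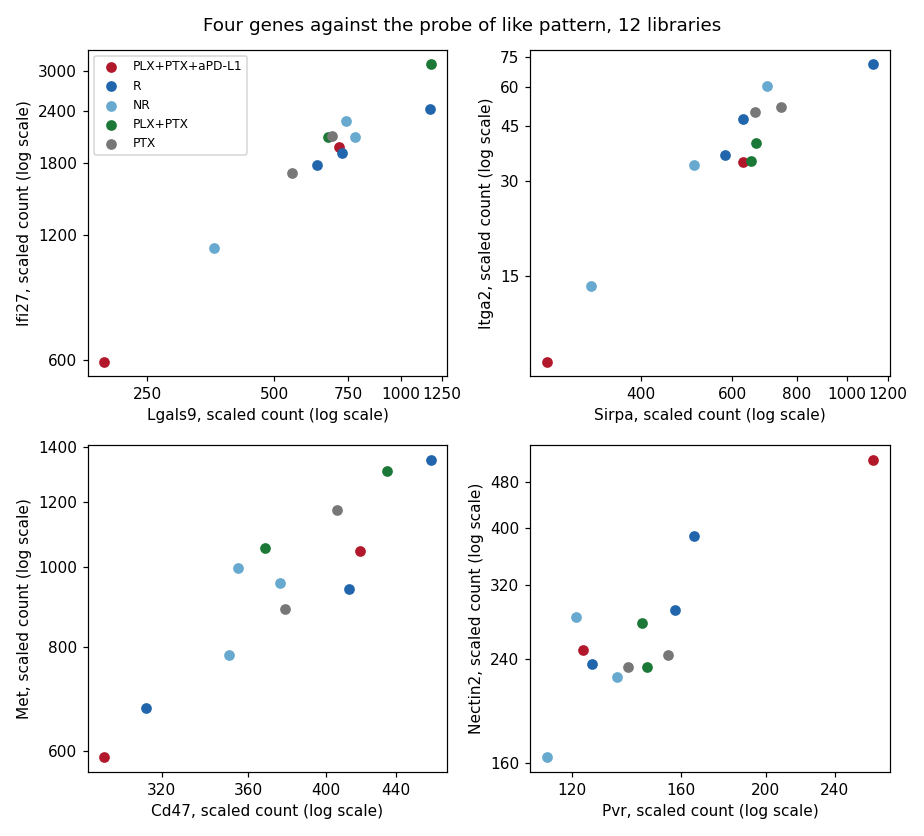
Scaled counts (log axes) of 4 genes of the set against a probe of like pattern, 1 point per library, coloured by group. Lgals9 and Ifi27 line up over the whole range (Pearson 0.98, n = 12), whereas the relation of Pvr and Nectin2 leans on 1 PLX+PTX+aPD-L1 library at the top right and 1 NR library at the bottom left.

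The genes listed as receptors and partners of the set's proteins, not all of them direct binding partners, were mostly at background. Of 13 such genes listed, 10 were on the panel, 6 were tested and 4 were above the limit in 6 or more libraries. Thbs1 (thrombospondin 1, a ligand of CD47), Hmgb1 (which binds TIM-3) and Tlr4 were above it in 12 libraries and Cd86 in 9, while Cd80 was in 2. None of the 6 passed in any comparison. Their median log2 fold change was −0.33 in PLX+PTX+aPD-L1 against PLX+PTX, beside −0.02 over all probes, and 0.12 in R against NR, beside 0.11. Thbs1 averaged 1054 ± 790.0 in PLX+PTX+aPD-L1, 1547 ± 960.0 in R, 1626 ± 838 in NR, 1108 ± 172 in PLX+PTX and 1507 ± 99.7 in PTX (SD).

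Of 19 other checkpoint and costimulatory genes, 12 were tested and 5 were above the limit in 6 or more libraries. In PLX+PTX+aPD-L1 against PLX+PTX, 1 of 12 rose, beside 2.28% of all probes. It was Btla (an inhibitory receptor of lymphocytes), with a log2 fold change of 2.27 (SE 0.40, adjusted p = 0.00668 by edgeR). Its raw counts were 27 and 26 in PLX+PTX+aPD-L1 and 26 and 23 in PTX. In PLX+PTX they were 11 and 13, under the negative-control means of 17.4 and 15. How far background and scaling bear on the value was not tested. With R and NR averaged as the other side, 2 of 12 rose, beside 5.69% of all probes: Btla (1.95, SE 0.30, adjusted p = 0.00163) and Tnfrsf14 (1.48, SE 0.36, adjusted p = 0.0298), the HVEM gene whose product binds BTLA. Btla passed its detection limit in 1 library and Tnfrsf14 in 11. All 12 tested genes of this list were above 0 there, with a median of 0.49, beside 0.10 over all probes. None passed in the other 4 comparisons. Without PLX+PTX replicate 1 or 2 the call of Btla set against PLX+PTX was lost (adjusted p = 0.0922 and 0.0768 by edgeR), the value being 2.22 and 2.33. Its value was 1.71 without PLX+PTX+aPD-L1 replicate 2. Tnfrsf14 lost its call in 6 of the 12 refits that each left out 1 library, and its value lay between 0.95 (without PLX+PTX+aPD-L1 replicate 2) and 1.90.

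T cell markers, given because BTLA is a lymphocyte receptor, were read in the same comparisons. Of the 10 on the panel, 5 were tested, and in each comparison 4 lay above 0 and 1 below. Cd3g, the only marker above the limit in 6 or more libraries, was not called at 1.16 and 0.92 (adjusted p = 0.322 and 0.293 by edgeR). Called were 2 of the 5 in each, beside 2.28% and 5.69% of all probes. They were Zap70 (a T cell receptor kinase) at 2.68 in both (adjusted p = 0.00369 and 0.00017 by edgeR) and Cd2 (an adhesion receptor) at 2.24 and 2.01 (adjusted p = 0.0172 and 0.00389). Without PLX+PTX replicate 2 both calls against PLX+PTX were lost (adjusted p = 0.0768 each). That of Cd2 was also lost without PLX+PTX replicate 1 or either PLX+PTX+aPD-L1 library. Zap70 passed its detection limit in 2 libraries, both PLX+PTX+aPD-L1, and Cd2 in none. To be tested, a probe needed 20 or more raw counts in at least 2 libraries. Zap70 met this filter through the PLX+PTX+aPD-L1 libraries alone (49 and 27 raw counts). Cd2 met it through PLX+PTX+aPD-L1 replicate 1 (32) and PTX replicate 1 (25). The filter thus bears on which markers were tested, and its part in the calls was not tested. The scaled levels of the 10 markers summed to 230 and 344 in PLX+PTX+aPD-L1, to between 134 and 181 in R and 107 and 118 in NR, to 127 and 125 in PLX+PTX and to 115 and 132 in PTX. The scaled negative-control mean, a value per probe, was 21.9 and 32.5 in PLX+PTX+aPD-L1 and 23.9 in R replicate 2. A sum over 10 probes carries that background 10 times, which comes near or above the sums of these libraries. Of the 10 markers, 1 and 2 were above the limit in PLX+PTX+aPD-L1 replicates 1 and 2. Neither the part of background nor that of T cell content in these values was tested.

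The interferon and JAK-STAT genes that lead to PD-L1 held 15 probes on the panel, of which 12 were tested and 10 were above the limit in 6 or more libraries. None passed in any comparison. Irf7, a transcription factor of the interferon response, had scaled levels of 53.1 and 286 in PLX+PTX+aPD-L1, set against 1276 and 414 in PLX+PTX. It averaged 170 ± 165 in PLX+PTX+aPD-L1, 348 ± 176 in R, 277 ± 210 in NR, 845 ± 610 in PLX+PTX and 248 ± 58.1 in PTX (SD). Its log2 fold change was −2.36 in PLX+PTX+aPD-L1 against PLX+PTX (SE 0.85, adjusted p = 0.202), and Irf9, part of the ISGF3 complex, was at −1.10 (SE 0.35, adjusted p = 0.160). Without PLX+PTX replicate 1, Irf7 was at −1.33 and Irf9 at −0.55. Without PLX+PTX+aPD-L1 replicate 1 they were at −1.56 and −0.79, and without its replicate 2 at −3.99 and −1.46. The list's median in that comparison was −0.06, beside −0.02 over all probes. Log2 Lgals9 correlated at 0.79 with Irf9, the highest of this list, and its median over the 12 genes was 0.24, beside 0.12 over all probes.

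Vtcn1 was also set against the 4 mammary epithelial markers on the panel (Epcam, Cdh1, Esr1 and Erbb2). Its correlations with them had a median of 0.48, from 0.03 with Epcam to 0.63 with Erbb2, beside 0.10 over all probes. For the other clear genes the median with these markers was 0.35 (Sirpa), 0.35 (Lgals9), 0.16 (Cd47), 0.10 (Pvr) and −0.01 (Cd276). The 4 markers summed to 5299 and 5487 in PLX+PTX+aPD-L1, to between 6324 and 8601 in R, 6115 and 7416 in NR, 6569 and 6928 in PLX+PTX, and 6636 and 6845 in PTX. Both PLX+PTX+aPD-L1 sums were the lowest of the 12, but Epcam made up most of them (5049 and 5083). Against PLX+PTX, Epcam was at −0.34 (adjusted p = 0.566 by edgeR), Cdh1 at −0.12, Esr1 at −0.10 and Erbb2 at 0.05. The separation is not read as a result about epithelial content. Both Vtcn1 values of that group (198 and 298) lay inside the range of NR.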

How the data were processed

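Barcode counts of 784 probes (750 endogenous, 20 housekeeping, 6 positive and 8 negative controls) in 12 libraries were analysed as deposited, per the file headers whole-number raw counts with no normalization. The authors also deposited log2 values; DESeq2 and limma are named, with no role, in the submitters' processing notes, and the sources used here do not give how those log2 values were adjusted.

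Libraries were scaled by the geometric mean of the housekeeping probes. Probes with 20 or more counts in at least 2 libraries (615; 135 left out) entered edgeR 4.0.16 (R 4.3.3; quasi-likelihood, all 12 libraries, 5 group means, housekeeping offsets, Benjamini-Hochberg over 615, threshold 0.05). Replicates are numbered in accession order and pair nothing. The members and lists were chosen with earlier results of these data known. Named genes were all 9 members, up to 4 genes of smallest p per list, and the 2 probes of highest Pearson correlation (log2 scaled counts) per member above the limit in 6 or more libraries; Csf1r, Cd14, Epcam, Thbs1, Pdcd1, Tigit, Cd96 and genes named only for detection were chosen after their values were seen. Alternatives were other scalings, filters, background subtraction, DESeq2 1.42.0, limma 3.58.1 (voom, and on the deposited log2 values), fewer groups and leaving out libraries; the refits of Btla, Tnfrsf14, Zap70, Cd2, Irf7 and Irf9 without a library were chosen after seeing the data. Procedures were tested on simulated counts. RefSeq promoters (GRCm38.p6) gave the sequences.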

Additional observations from a re-analysis of the deposited data

How the results depend on the processing

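Across 23 alternatives, 12 of which leave out 1 library, 946 fold changes of the 7 tested genes were recomputed: 843 kept direction and side of the threshold and 94 changed sign, 78 of those among the 23 pairs of gene and comparison under 0.25 on the log2 scale. No gene of the set was called in the 4 comparisons without PLX+PTX+aPD-L1 under any alternative. No paired analysis was possible because the labels give no replicate numbers shared between groups. Positive-control scaling, which leaves the low total signal of PLX+PTX+aPD-L1 in place, moved the median of all probes from −0.02 to −1.03 against PLX+PTX (8 probes higher, 51 lower) and from 0.10 to −0.95 against the mean of R and NR (12 higher, 158 lower), beside 14 and 35 higher and none lower in the report. With it, 2 genes of the set were called in the first (Sirpa −1.73, Lgals9 −2.22) and 5 in the second (Cd276, Vtcn1, Cd47, Sirpa and Lgals9, from −1.22 to −1.86); Cd274 turned to −0.21 and −0.35 and Pvr to −0.72 and −0.66. In R against NR it gave Pvr −0.45, Sirpa −0.15 and Lgals9 −0.32, with all probes at −0.62. Total endogenous counts moved the median of all probes to 0.40 and 0.36 in the PLX+PTX+aPD-L1 comparisons and turned Vtcn1 to 0.12 (against PLX+PTX) and Cd276 to 0.0185 (against R and NR). The deposited log2 values called 1 gene of the set, Lgals9 at −1.17 (adjusted p = 0.0478 by limma), against R and NR, and 28 probes higher and 26 lower there; they called 3 probes in R against NR. Probes called against PLX+PTX were 43 with total counts, 59 with positive controls, 26 with DESeq2, 24 with only the groups compared, and 0 when only probes detected in 10 or more libraries were kept or with deposited values. Against R and NR they were 69, 170, 23 with negative controls subtracted, 55 without a filter, 4 with the strict filter and 54 with deposited values. For any difference they were 36 with total counts, 28 with positive controls, 40 with DESeq2 and 0 with the strict filter, beside 18. The causes were not tested. Leaving out 1 library (where 1 remains in a group, it is assumed to vary like the others) gave 0 to 18, 16 to 53 and 8 to 21 probes called in these 3 tests, and 0 to 1 genes of the set against R and NR. It moved Cd274 between −0.18 and 1.65, Vtcn1 between −0.59 and 0.0041 and Pvr between −0.23 and 0.87 against PLX+PTX, and Cd274 between −0.28 and 1.55, Pvr between −0.13 and 0.97 and Sirpa between −1.26 and 0.0017 against R and NR. With 3 SD, or the highest negative control, as the limit, 75 or 78 of 108 readings were detected. In the deepest library, PTX replicate 1, Pdcd1lg2 and Havcr2 still had 13 and 15 raw counts, under its negative-control mean of 19.2.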
